A study of Homo sapiens with 6 samples.

Results

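The proteasome and immunoproteasome genes described here are the rows of the deposited TPM table whose gene name is PSM, a letter from A to G and a number. That rule took 48 rows of 51537, which carry 47 gene names because PSMA1 is listed under a pair of identifiers. They comprise 9 rows of the alpha ring of the 20S core, 3 constitutive catalytic beta subunits, 3 inducible catalytic beta subunits and 4 other beta rows. The others are 6 ATPases and 14 non-ATPase genes of the 19S cap, 5 activators or inhibitors and 4 assembly chaperones. PSMB3, a structural beta subunit, was not analysed here.

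The proteasome is the barrel-shaped protease that degrades proteins tagged with ubiquitin. Its 20S core is built of outer alpha rings and inner beta rings, and the 19S cap recognises, unfolds and feeds in the substrate. The beta subunits PSMB5, PSMB6 and PSMB7 carry the cutting sites. Interferon induces PSMB8, PSMB9 and PSMB10, which take their places in newly built cores and form the immunoproteasome, a version that favours peptides for MHC class I. Lymphoid cells are known for high levels of the inducible subunits, whereas most epithelial tumours express mainly the constitutive ones.

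Poly(A) RNA was measured in 3 libraries of crizotinib-resistant H3122 cells and 3 libraries of control H3122 cells. H3122 cells are an established line from a human lung adenocarcinoma that carries an EML4-ALK fusion, and crizotinib inhibits the ALK and MET kinases. The resistant cells had been raised under crizotinib stepped up from 0.1 to 10 µM, and the control cells are the H3122 cells they are set against. The labels name no clone, no other agent and no separate cultures, so the p-values rest on the spread among these 6 libraries alone, and that spread may be technical. In such bulk samples, fewer cells of a type and less RNA per cell cannot be told apart. The design sets the question of how transcripts differ between the resistant and the control cells. TPM is the length-scaled abundance of a gene, so levels can be set side by side between genes.

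Facts that bear on all values are these. Each library held an estimated 29856926 to 36695580 reads, rebuilt from the TPM values and annotated gene lengths. Across genes, which are not independent, Pearson's r between libraries was 0.986 to 0.989 inside a group and 0.957 to 0.960 between the groups. The epithelial markers were all expressed, with a summed level of 18181 to 19500.3 TPM in resistant and 17474 to 18004 TPM in control libraries. Of 12 leukocyte markers, 8 were under 1 TPM in all 6 libraries and 3, among them the T cell marker CD2 and the B cell marker MS4A1, were at 0 in all 6. The leukocyte list summed to 11.2 to 13.5 TPM in resistant and 9.51 to 10.5 TPM in control libraries. The fibroblast list summed to 0.188 to 0.391 TPM in resistant and 0.142 to 0.295 TPM in control libraries. The 5 endothelial markers summed to 5.79 to 7.29 TPM in resistant and 8.06 to 8.94 TPM in control libraries, with KDR at 0 in all 6. They did not move together. PECAM1 averaged 2.80 TPM in resistant and 0.912 TPM in control libraries, and CDH5 3.45 TPM in resistant and 7.24 TPM in control libraries.

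Letters of the interferon response element were looked for in RefSeq promoters, from 250 bases before to 50 bases after a gene's start, on both strands. Interferon response elements contain GAAA, any 2 bases and a second GAAA, and this pattern occurred in 3.57% of 35116 promoters. It also occurred for 7 of the 41 PSM genes with a listed promoter. A gene was counted if any of its listed promoters matched, and some have several, so genes and promoters are unlike units. An identical run, GAAAGCGAAA, stood in promoters of 5 of these 7 genes. Only 35 of the 35116 promoters, 0.0997%, held that run, which was looked up after the matches were seen. The stretches of 80 bases around it are shown because they belong to the immunoproteasome catalytic subunits and the 11S activator pair, plus 1 assembly chaperone. They are from GRCh38.p14, read 5′ to 3′ in the direction of the gene, with the match in capitals (TTTCGCTTTC is the same run on the other strand). PSMB8 is at chr6:32844007-32844086 (minus strand), PSMB10 at chr16:67936827-67936906 (minus), PSME1 at chr14:24136164-24136243 (plus), PSME2 at chr14:24146594-24146673 (minus) and PSMG4 at chr6:3258879-3258958 (plus).
PSMB8: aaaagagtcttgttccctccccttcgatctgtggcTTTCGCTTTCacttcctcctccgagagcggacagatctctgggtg
PSMB10: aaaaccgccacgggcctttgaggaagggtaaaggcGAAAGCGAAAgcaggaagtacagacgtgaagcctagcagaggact
PSME1: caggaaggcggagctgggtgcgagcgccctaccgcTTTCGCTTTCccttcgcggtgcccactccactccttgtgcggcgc
PSME2: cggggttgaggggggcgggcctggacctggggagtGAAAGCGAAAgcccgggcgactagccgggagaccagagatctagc
PSMG4: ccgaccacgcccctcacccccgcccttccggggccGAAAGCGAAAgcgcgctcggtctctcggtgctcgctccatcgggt
The match began 4 bases before 1 listed start of PSMB8. Another listed promoter of PSMB8, at chr6:32844630-32844929, had no match to the wider pattern. The match began 21 bases before the listed start of PSMB10, 28 before that of PSME2 and 33 before that of PSMG4. For PSME1 it began at base 6 after the listed start. These 5 genes did not move as 1 block in resistant cells. PSME1, PSME2 and PSMG4 were called higher, PSMB10 was called lower and PSMB8 was not called, with the values given below. A match of letters is a description, not a binding site. PSMB9, whose listed promoter has no match to the wider pattern, was called higher.

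Most proteasome genes were modestly higher in resistant cells. Among the 45 members that passed the filter on low values, 26 rose (57.8%), 6 fell (13.3%) and for 13 no change was called. Over all 16077 genes tested, 48.6% were called, 24.0% higher and 24.7% lower. In protein-coding genes averaging 5 TPM or more, 56.7% were called, 25.5% higher and 31.2% lower. In genes averaging 50 TPM or more, a background added after the values were seen, 61.9% were called, 29.9% higher and 32.0% lower. The median log2 change of the 45 members was 0.20, from -0.58 to 0.76, beside a median of -0.0044 over all genes tested. No member changed by 2-fold on this scale, and 4 changed by at least 1.5-fold. The members summed to 6525, 7017 and 6766 TPM in the resistant libraries, against 5466, 5922 and 5802 TPM in the control libraries, so every resistant library lay above every control library. The groups did not overlap for 36 members, 28 of them higher and 8 lower, where 57.9% of all genes tested did not overlap, 29.2% higher and 28.7% lower. Changes are on the log2(TPM + 1) scale, resistant minus control, with limma's standard error, and a gene was called at a Benjamini-Hochberg adjusted p under 0.05. The number that rose was 22 to 26 when any 1 library was left out and 24 without the members that share exons with another gene on the same strand.

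**Figure D1:**
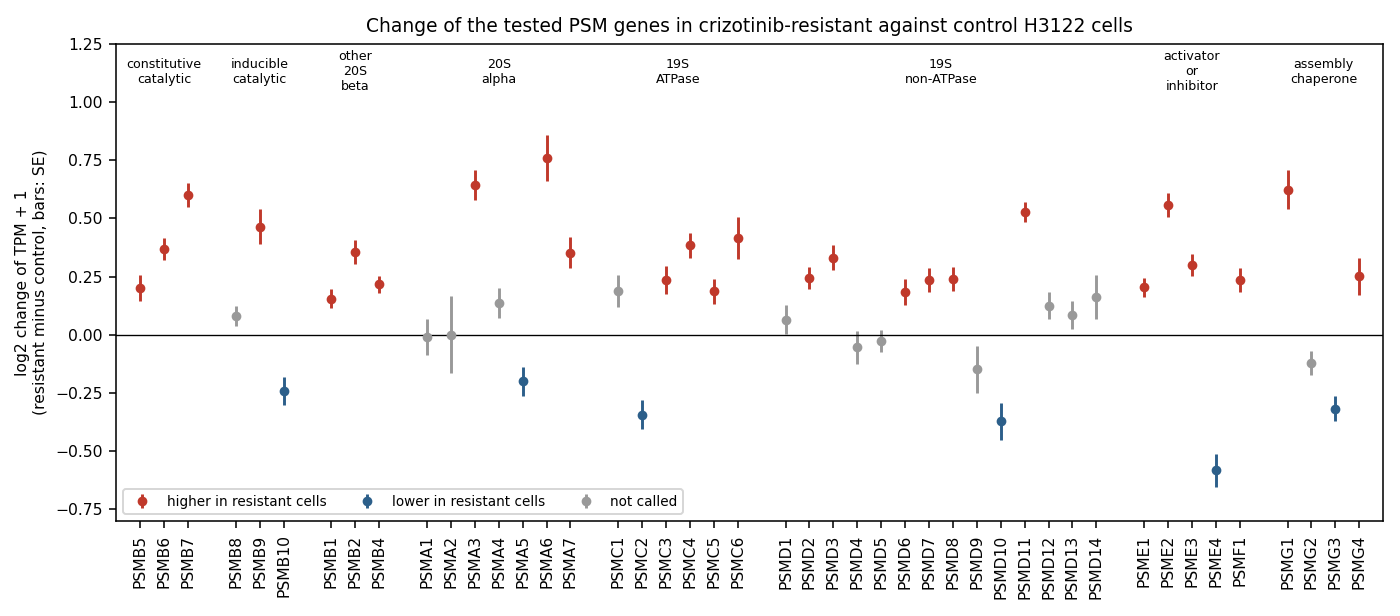
Log2 change of TPM + 1 (resistant minus control) of the 45 tested PSM genes by class, with bars of 1 standard error and colours for the call. The 3 constitutive catalytic genes lie above 0 while PSMB8, PSMB9 and PSMB10 are spread from -0.24 to 0.47.

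All 3 constitutive catalytic genes rose. PSMB5 (ENSG00000100804, chr14:23016543-23035230), the chymotrypsin-like subunit and a main target of bortezomib, was at 293.1, 329.5 and 319.7 TPM in resistant libraries, against 260.5, 284.4 and 273.8 TPM in control libraries. Each resistant value of PSMB5 was above each control value, by a small margin (log2 0.20 ± 0.06 SE, adjusted p = 0.0203). Of 13 alternative fits, 7 with another setting and 6 without 1 library each, 4 lost that call, all of them without 1 library (resistant replicate 2 or 3, control replicate 1 or 3; highest adjusted p = 0.0708). PSMB6 (ENSG00000142507, chr17:4796144-4798503), the caspase-like subunit, was at 423, 458 and 453 TPM in resistant and 334, 360 and 337 TPM in control libraries. The groups of PSMB6 were well apart (log2 0.37 ± 0.05, adjusted p = 6.54e-04). PSMB7 (ENSG00000136930, chr9:124353466-124415444), the trypsin-like subunit, was at 335.2, 361.5 and 348.1 TPM in resistant and 217.0, 231.4 and 239.6 TPM in control libraries. It had the largest change of the 6 catalytic genes (log2 0.60 ± 0.05, adjusted p = 7.94e-05), and in control cells the lowest mean of the 3 constitutive genes, at 229 ± 11.5 TPM (SD, n = 3).

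The inducible catalytic genes took 3 different courses. PSMB8 (ENSG00000204264, chr6:32840717-32844703), which takes the place of PSMB5, was at 105.6, 105.1 and 99.95 TPM in resistant and 94.65, 100.9 and 98.03 TPM in control libraries. The lowest resistant library lay inside the control range, and no change was called (log2 0.08 ± 0.04, adjusted p = 0.170; called by limma-voom on rebuilt reads at adjusted p = 0.0346). PSMB9 (ENSG00000240065, chr6:32844136-32859585), which takes the place of PSMB6, was at 29.04, 28.62 and 25.60 TPM in resistant and 18.2, 20.8 and 20.5 TPM in control libraries. PSMB9 rose without overlap (log2 0.47 ± 0.07, adjusted p = 0.00161) and was called in all 13 alternative fits. PSMB10 (ENSG00000205220, chr16:67934502-67937087), which takes the place of PSMB7, was at 16.6, 17.1 and 16.0 TPM in resistant and 19.1, 19.2 and 21.0 TPM in control libraries. It fell without overlap (log2 -0.24 ± 0.06, adjusted p = 0.0132), and the call was lost in 4 of 13 alternative fits, among them limma-voom on rebuilt reads and those without resistant or control replicate 3 (highest adjusted p = 0.0560). Exons of another gene on the same strand cover 34.8% of the exonic length of PSMB10; that gene, ENSG00000261884, was at a mean of 0.573 TPM in resistant and 0.435 TPM in control libraries, and its part in the result was not tested. PSMB8 and PSMB9 are neighbours on opposite strands whose exons overlap over 20.6% of the length of PSMB8, counting an antisense RNA as well. How the authors' counting used strand is not given in the sources used here, so reads of such pairs may be shared. The leukocyte marker list, of cells known for these inducible genes, was also higher in resistant cells (sums above), led by CSF1R at 5.13 ± 1.28 TPM in resistant and 3.03 ± 0.107 TPM in control cells. PTPRC, the marker common to leukocytes, was at 0.133 to 0.312 TPM in resistant and 0.0129 to 0.112 TPM in control libraries, while CD2, MS4A1 and LYZ were at 0.

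**Figure D2:**
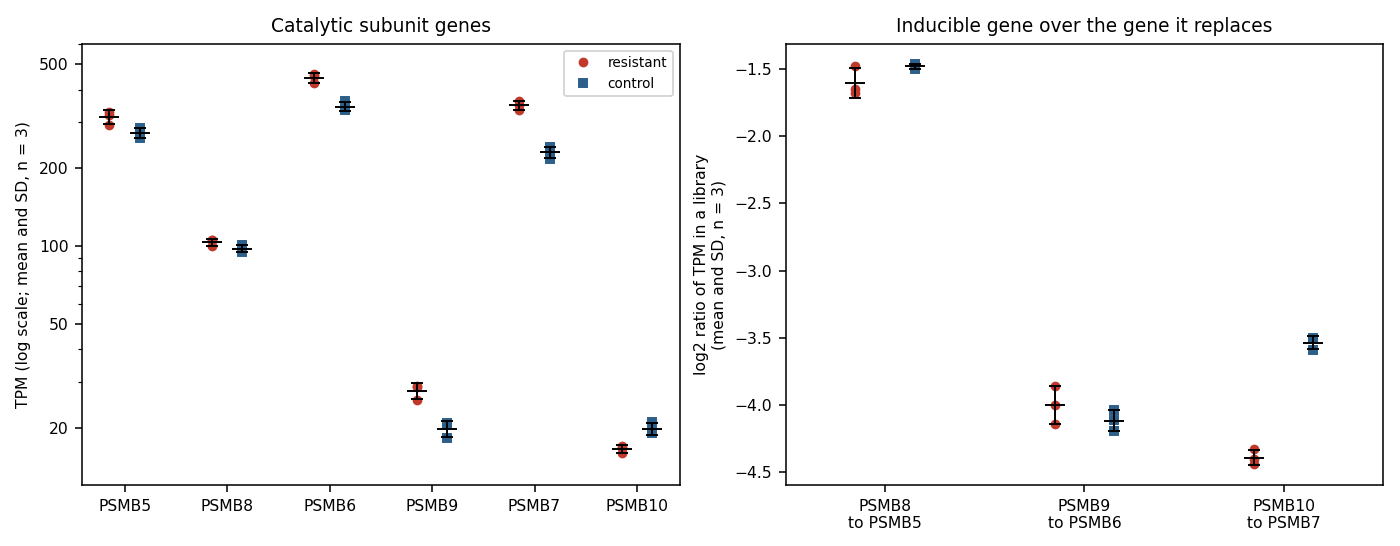
Left, TPM of the 6 catalytic genes in each library on a log axis, each inducible gene beside the gene it replaces, with mean and SD (n = 3). Right, log2 ratio of inducible over constitutive TPM within a library; for PSMB10 over PSMB7 the resistant libraries lie at -4.45 to -4.33 and the control libraries at -3.59 to -3.50.

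Within a library, the inducible genes were a minority of the catalytic subunit mRNA in both groups, and a smaller one in resistant cells. PSMB8, PSMB9 and PSMB10 held 12.6%, 11.6% and 11.2% of the summed TPM of the 6 catalytic genes in resistant libraries, against 14.0%, 13.9% and 14.1% in control libraries. All 3 resistant shares were below all 3 control shares, with a difference of -2.18 percentage points; without 1 library this difference was -2.57 to -1.88 points. The sum of the inducible genes was 148 ± 5.50 TPM in resistant and 138 ± 4.81 TPM in control libraries, and that of the constitutive genes was 1107 ± 50.6 TPM in resistant and 846 ± 32.4 TPM in control libraries (SD, n = 3 each). The lower share therefore came with a larger constitutive sum, not with a smaller inducible sum.

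The 3 replacement pairs were compared by the ratio of TPM within each library, with a two-sided exact permutation test that cannot go below p = 0.1 for 3 against 3. The PSMB10 to PSMB7 ratio was 0.0497, 0.0472 and 0.0459 in resistant and 0.0881, 0.0828 and 0.0877 in control libraries. That ratio was lower in every resistant library (log2 difference -0.86 ± 0.04 SE, exact permutation p = 0.1, adjusted over the 3 pairs 0.3). The PSMB8 to PSMB5 ratio was 0.360, 0.319 and 0.313 in resistant and 0.363, 0.355 and 0.358 in control libraries. Resistant replicate 1 lay among the control values of this pair, and the log2 difference was -0.12 ± 0.06 (exact permutation p = 0.3, adjusted 0.3). The PSMB9 to PSMB6 ratio was 0.0687, 0.0625 and 0.0565 in resistant and 0.0544, 0.0577 and 0.0608 in control libraries. These groups overlapped (log2 difference 0.11 ± 0.09, exact permutation p = 0.3, adjusted 0.3), so PSMB9 and PSMB6 were both higher while a change in their ratio was not shown.

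The other subunits of the 20S core were mostly higher as well. PSMB2 and PSMB4, structural beta subunits, were at 288 ± 17.6 and 374 ± 6.07 TPM in resistant cells, against 224 ± 4.54 and 321 ± 7.64 TPM in control cells (log2 0.36 and 0.22, adjusted p = 0.00108 and 0.00215). PSMB1, another one, was at 245 ± 3.82 TPM in resistant and 220 ± 6.67 TPM in control cells (log2 0.16, adjusted p = 0.0133), a call lost without control replicate 3 (adjusted p = 0.0514). Of 7 tested alpha subunit genes, 3 rose, 1 fell and 3 did not pass. PSMA3 was at 139, 133 and 127 TPM in resistant and 77.3, 90.2 and 87.2 TPM in control libraries. Its groups were far apart (log2 0.64 ± 0.07, adjusted p = 2.06e-04). PSMA7, the most abundant member, was at 664, 783 and 717 TPM in resistant and 534, 586 and 571 TPM in control libraries (log2 0.35 ± 0.07, adjusted p = 0.00337). PSMA4, named after its values were seen, was at 121 ± 3.84 TPM in resistant and 111 ± 9.02 TPM in control cells and did not pass (adjusted p = 0.119). PSMA5 was the alpha gene that fell, at 72.03, 75.02 and 69.30 TPM in resistant and 76.9, 88.5 and 84.0 TPM in control libraries. Its difference was small (log2 -0.20 ± 0.06, adjusted p = 0.0279), and the call was lost in 5 of 13 alternative fits (no filter on low values, and without resistant replicate 1 or 3 or control replicate 2 or 3; highest adjusted p = 0.0954).

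Core subunits occur in equal numbers in the particle, but their mRNA levels were not alike. Of the 13 tested standard core genes, 10 were above 50 TPM in all 6 libraries, while PSMA1, PSMA2 and PSMA6 were under 20 TPM in all 6. PSMA1 was at 12.2 to 14.1 TPM in resistant and 12.7 to 14.2 TPM in control libraries, and PSMA2 at 1.06 to 1.47 TPM in resistant and 0.930 to 1.42 TPM in control libraries. PSMA6 was at 5.72, 5.46 and 5.16 TPM in resistant and 2.55, 3.06 and 2.82 TPM in control libraries, the largest change of any member (log2 0.76 ± 0.10, adjusted p = 5.86e-04). For each of these 3 genes the annotation places another gene on the same strand over part of the exons, covering 24.7% of PSMA1, 14.6% of PSMA2 and 14.1% of PSMA6. The same held for PSMD9, at 3.04 ± 0.275 TPM in resistant and 3.47 ± 0.119 TPM in control cells, where 19.9% was covered. The part of these overlaps in the low levels was not tested. A near-copy of PSMA6, the pseudogene PSMA6P1, was at 5.60 to 10.3 TPM in resistant and 5.49 to 6.17 TPM in control libraries. It was above PSMA6 itself in every library except resistant replicate 1, so the values and the change of PSMA6 are uncertain. Of 27 PSM pseudogene rows, 11 were at 0 in all libraries and 6 reached 1 TPM in any. PSMA8, the testis-specific alpha subunit, and the second PSMA1 row were at 0 in all 6 libraries, and PSMB11, the thymus-specific catalytic subunit, was at 0 in 4 and at 0.116 TPM or less in the other two.

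**Figure D3:**
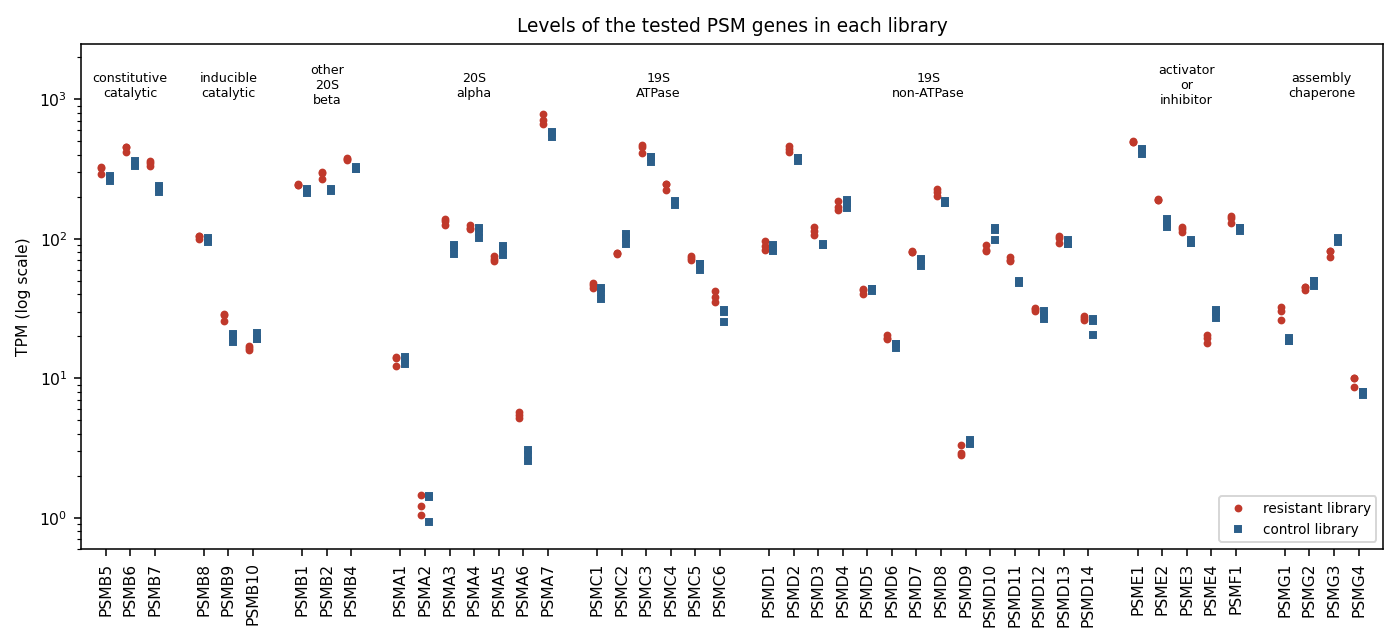
TPM of the 45 tested PSM genes in each of the 6 libraries, on a log axis and by class, with resistant libraries as red circles left of control libraries as blue squares. Levels run from about 1 TPM for PSMA2 to 783 TPM for PSMA7, and most shifts between groups are small beside the differences between genes.

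The 6 ATPases of the 19S cap, which form the ring that unfolds substrates, gave 4 genes that rose, 1 that fell and 1 that did not pass. PSMC4 was at 224.5, 246.5 and 246.6 TPM in resistant and 175.4, 188.4 and 185.2 TPM in control libraries (log2 0.38 ± 0.05, adjusted p = 7.78e-04). PSMC6 was at 42.3, 35.2 and 38.1 TPM in resistant and 25.4, 29.7 and 30.7 TPM in control libraries (log2 0.42 ± 0.09, adjusted p = 0.00685). PSMC3 was at 445 ± 30.2 TPM in resistant and 378 ± 17.99 TPM in control cells (log2 0.23, adjusted p = 0.0145), a call lost without resistant replicate 3 (adjusted p = 0.0546). The fourth that rose, named after its values were seen, was PSMC5, at 73.2 ± 2.62 TPM in resistant and 64.2 ± 3.47 TPM in control cells (log2 0.19, adjusted p = 0.0226), a call lost without a filter and without resistant replicate 2 or 3 (highest adjusted p = 0.0731). PSMC2 went the other way, at 79.02, 79.80 and 78.52 TPM in resistant and 92.35, 108.9 and 101.5 TPM in control libraries. Every resistant value of PSMC2 was below every control value (log2 -0.34 ± 0.06, adjusted p = 0.00282). The ATPase gene that did not pass, PSMC1, was at 46.7 ± 1.82 TPM in resistant and 40.9 ± 3.70 TPM in control cells (adjusted p = 0.0602). It was called higher in 6 of 13 alternative fits (lowest adjusted p = 0.00332), and exons on the opposite strand cover 75.8% of its length.

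Among 14 non-ATPase genes of the cap, 6 rose, 1 fell and 7 did not pass. The one with the largest rise was PSMD11, a scaffold subunit of the lid known in human stem cells for limiting proteasome assembly, at 69.01, 74.50 and 70.20 TPM in resistant and 48.68, 50.01 and 48.58 TPM in control libraries. Its groups were tight and apart (log2 0.53 ± 0.04, adjusted p = 8.51e-05). PSMD3, a lid subunit, was at 115 ± 7.90 TPM in resistant and 90.7 ± 0.817 TPM in control cells (log2 0.33, adjusted p = 0.00195). PSMD2, a large base subunit that docks ubiquitin receptors, was at 442 ± 21.1 TPM in resistant and 373 ± 11.96 TPM in control cells (log2 0.24, adjusted p = 0.00417). The others that rose, named after their values were seen, were PSMD7, PSMD8 and PSMD6, with log2 changes of 0.24, 0.24 and 0.18. The call of PSMD6 (adjusted p = 0.0292) was lost in 8 of 13 alternative fits, among them those without a filter and without any 1 of the 6 libraries (highest adjusted p = 0.0983). PSMD10, also called gankyrin, is an assembly chaperone of the base rather than a subunit, like PSMD5 and PSMD9, and it fell. It was at 90.4, 81.8 and 83.8 TPM in resistant and 98.0, 119 and 116 TPM in control libraries (log2 -0.37 ± 0.08, adjusted p = 0.00651). A pseudogene of it, PSMD10P2, was at 9.02 to 10.9 TPM in resistant and 3.26 to 5.89 TPM in control libraries, so reads may be shared between the copies. For PSMD1, PSMD5, PSMD9, PSMD12 and PSMD13 no change was called either, with log2 changes from -0.15 for PSMD9 to 0.12 for PSMD12. PSMD4, a ubiquitin receptor of the cap, was at 172 ± 13.5 TPM in resistant and 178 ± 11.5 TPM in control cells and did not pass (adjusted p = 0.553), and PSMD14, the deubiquitinase of the lid, was at 27.1 ± 0.906 TPM in resistant and 24.2 ± 3.30 TPM in control cells (adjusted p = 0.200); both were named after their values were seen.

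The activators and the inhibitor all passed the test, 4 higher and 1 lower. PSME1 and PSME2 encode the alpha and beta chains of the interferon-inducible 11S activator, and PSME2 rose the more of the pair. PSME2 was at 189.4, 192.1 and 190.1 TPM in resistant and 121.5, 138.1 and 128.7 TPM in control libraries (log2 0.56 ± 0.05, adjusted p = 1.30e-04). PSME1 was at 490.9, 499.5 and 495.0 TPM in resistant and 409.1, 444.5 and 437.0 TPM in control libraries (log2 0.20 ± 0.04, adjusted p = 0.00540). The level of PSME1 was above that of PSME2 in all 6 libraries, although their products assemble into 1 ring; PSME1, outside the rule for named genes, was added after its values were seen. PSME3, the nuclear 11S activator, was at 117 ± 4.99 TPM in resistant and 94.7 ± 2.37 TPM in control cells (log2 0.30, adjusted p = 0.00139). PSMF1, an inhibitor of the core in vitro, was at 139 ± 7.67 TPM in resistant and 118 ± 2.98 TPM in control cells (log2 0.23, adjusted p = 0.00675). PSME4, the large single-chain activator PA200, had the largest fall of any member. It was at 20.4, 17.9 and 19.5 TPM in resistant and 27.2, 30.8 and 30.1 TPM in control libraries, without overlap (log2 -0.58 ± 0.07, adjusted p = 4.31e-04).

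The chaperones of core assembly split. PSMG1 and PSMG2 encode the partners of a dimer, PAC1 and PAC2, that starts the alpha ring, and PSMG3 and PSMG4 those of a second dimer, PAC3 and PAC4. PSMG1 was at 26.05, 30.62 and 32.54 TPM in resistant and 18.50, 19.43 and 18.67 TPM in control libraries (log2 0.62 ± 0.08, adjusted p = 6.71e-04). Its partner PSMG2, also added after its values were seen, was at 44.4 ± 1.48 TPM in resistant and 48.5 ± 2.38 TPM in control cells and did not pass (log2 -0.12, adjusted p = 0.0914). PSMG3 fell, at 81.7, 81.4 and 73.6 TPM in resistant and 94.7, 101 and 100.2 TPM in control libraries (log2 -0.32 ± 0.05, adjusted p = 0.00229). PSMG4 was at 10.1, 10.0 and 8.72 TPM in resistant and 7.61, 8.03 and 8.05 TPM in control libraries (log2 0.25 ± 0.08, adjusted p = 0.0323), and this call was lost in 7 of 13 alternative fits, among them those without a filter and without any 1 library other than resistant replicate 3 (highest adjusted p = 0.102). The members of each dimer thus had log2 changes of opposite sign.

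The chromosomal neighbours of the members also moved. For each member the median log2 change of the other protein-coding genes within 5 Mb that averaged 5 TPM or more was taken. Around 4 of the 6 members that fell this median was well below 0: -0.58 over 78 genes for PSMC2, -0.46 over 22 for PSMD10, -0.455 over 52 for PSMA5 and -0.35 over 47 for PSMG3. PSME4 (-0.09 over 12 genes) and PSMB10 (0.01 over 85 genes) fell in windows near 0. Of the 26 members that rose, 16 lay in windows above 0, the highest being those of PSMD3 (0.38 over 102 genes), PSME3 (0.36 over 115), PSMD11 (0.31 over 56), PSMA3 (0.29 over 40), PSMC6 (0.27 over 45) and PSMG1 (0.26 over 39). The lowest windows of members that rose were those of PSMB1 (-0.31 over 14 genes), PSMD6 (-0.23 over 6) and PSMB7 (-0.12 over 85), and the window of PSME2 was near 0 (-0.02 over 57). Among all that rose, 22 had a change larger in size than their window's median, and 2 of the 6 that fell did. Members were called for their own change, and the same count was not made for other called genes. These counts therefore have no background to be read against. The part of the neighbourhood in the change of a member was not tested.

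**Figure D4:**
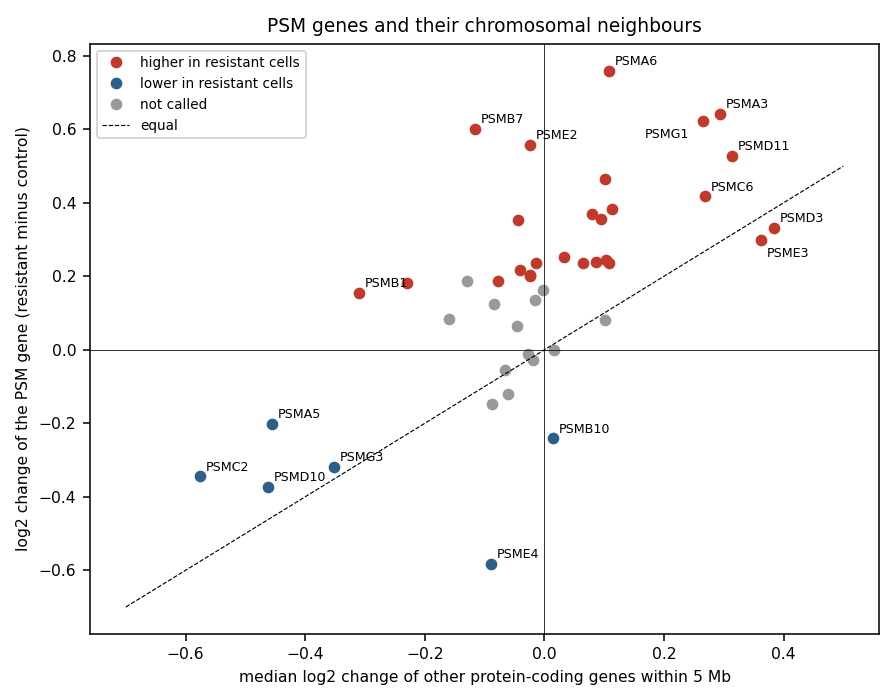
Log2 change of each tested PSM gene against the median log2 change of the other protein-coding genes within 5 Mb of it, with the dashed line at equality. PSMC2, PSMD10, PSMA5 and PSMG3 fell among neighbours that were lower, while PSMB1, PSMB7 and PSME2 rose in windows below 0.

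Genes that regulate or assist the proteasome were read from lists chosen for this pathway. The counts of every list stand beside the shares over all genes tested, 24.0% called higher and 24.7% lower. In genes averaging 50 TPM or more these shares were 29.9% and 32.0%. The transcription factor NFE2L1, also called NRF1, drives proteasome genes when proteolysis is short. It was at 126, 139 and 128 TPM in resistant and 87.3, 88.5 and 88.7 TPM in control libraries, without overlap (log2 0.56 ± 0.05, adjusted p = 8.59e-05). Of 8 genes of this response, 3 rose, 1 fell and 4 did not pass (median log2 0.06). The small MAF partners of NFE2L1 went both ways: MAFF and MAFG were at 46.9 ± 3.52 and 110 ± 4.43 TPM in resistant and 38.6 ± 0.553 and 94.4 ± 1.45 TPM in control cells (log2 0.27 and 0.21, adjusted p = 0.00740 and 0.00530). MAFK was at 46.6 ± 2.79 TPM in resistant and 61.2 ± 3.01 TPM in control cells (log2 -0.39, adjusted p = 0.00139). MAFK lies on chromosome 7, where 454 protein-coding genes averaging 5 TPM or more, PSM genes left out, had a median log2 change of -0.34. On chromosome 17, which holds NFE2L1 and MAFG, that median was 0.15 over 598 genes. The part of the chromosome in these changes was not tested. The antioxidant element letters TGACNNNGC, which NFE2L1 and its relatives bind, occurred in 13.3% of all 35116 promoters. They also occurred for 14 of 41 members, a member being counted if any of its listed promoters held them. Of these 14 members, 7 were called higher, where 57.8% of all 45 tested members were. PSME4, with the largest fall of any member, was among the others. The part of NFE2L1 in the changes of the members was not tested.

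Of 18 partners outside the PSM names, 8 rose, 1 fell and 9 did not pass (median log2 0.08). Without any 1 library the number that rose was 3 to 5, and without a filter on low values it was 4. After rescaling over nuclear protein-coding genes, 8 rose and 4 fell. Without that rescaling, 24.0% of all genes tested were called higher and 24.7% lower. UBQLN2, a shuttle that brings ubiquitinated proteins to the proteasome, was at 130, 134 and 126 TPM in resistant and 84.1, 91.1 and 88.0 TPM in control libraries (log2 0.56 ± 0.05, adjusted p = 7.76e-05). UBE3C, a ubiquitin ligase bound to the proteasome, was at 98.8 ± 2.71 TPM in resistant and 81.7 ± 2.97 TPM in control cells (log2 0.27, adjusted p = 0.00197). PAAF1, a chaperone of the cap, was at 19.8 ± 0.600 TPM in resistant and 16.6 ± 1.48 TPM in control cells (log2 0.25, adjusted p = 0.0251), and UCHL5, a deubiquitinase of the cap, was at 40.3 ± 3.003 TPM in resistant and 34.3 ± 3.04 TPM in control cells (log2 0.23, adjusted p = 0.0463). The partner that fell, named after its values were seen, was ECPAS, a clamp between core and cap, at 46.0 ± 2.51 TPM in resistant and 53.8 ± 2.59 TPM in control cells (log2 -0.22, adjusted p = 0.0143); no partner was called lower without resistant or control replicate 3, 2 without resistant replicate 1 and 3 without control replicate 1.

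VCP, the segregase that extracts proteins for degradation, was at 268 ± 6.01 TPM in resistant and 259 ± 11.6 TPM in control cells and did not pass (adjusted p = 0.380; named after its values were seen). Of the 11 genes of VCP and its cofactors, 2 rose, 3 fell and 6 did not pass, where 24.0% of all genes tested rose and 24.7% fell. For this list, limma-voom on rebuilt reads called 4 higher and 3 lower. The cofactors NSFL1C and UFD1 were at 92.6 ± 5.43 and 24.0 ± 1.27 TPM in resistant and 61.5 ± 2.91 and 18.7 ± 1.076 TPM in control cells (log2 0.58 and 0.34, adjusted p = 1.78e-04 and 0.00357). The cofactors FAF1 and UBXN7 were at 29.8 ± 0.768 and 21.8 ± 2.38 TPM in resistant and 55.3 ± 2.79 and 28.6 ± 0.849 TPM in control cells (log2 -0.87 and -0.38, adjusted p = 1.84e-05 and 0.00543). The other cofactor that fell, DERL1, a channel component of the endoplasmic reticulum named after its values were seen, was at 30.9 ± 0.783 TPM in resistant and 39.3 ± 1.43 TPM in control cells. Among 6 ubiquitin and E1 genes, 1 rose. This polyubiquitin gene, UBB, was at 816 ± 49.97 TPM in resistant and 729 ± 17.9 TPM in control cells (log2 0.16, adjusted p = 0.0329), a call lost with median-ratio scaling, without a filter and without resistant replicate 2 or 3 or control replicate 1 or 3.

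Of 10 genes that trim or carry peptides after the proteasome, 4 rose, 2 fell and 4 did not pass (median log2 0.21). Over all genes tested, 24.0% were called higher and 24.7% lower. TAP1, the peptide transporter chain encoded beside PSMB9, was at 32.5, 34.4 and 33.9 TPM in resistant and 25.8, 27.7 and 26.9 TPM in control libraries (log2 0.32 ± 0.05, adjusted p = 0.00147). TAP2, the other chain, was at 18.4 ± 0.992 TPM in resistant and 11.9 ± 0.375 TPM in control cells (log2 0.59, adjusted p = 2.49e-04). The peptidase NPEPPS was at 45.0 ± 1.03 TPM in resistant and 35.7 ± 1.10 TPM in control cells (log2 0.32, adjusted p = 8.48e-04). TPP2, a giant peptidase that trims proteasome products, was at 14.7 ± 1.36 TPM in resistant and 25.6 ± 1.48 TPM in control cells (log2 -0.76, adjusted p = 1.97e-04). The others called, named after their values were seen, were TAPBP, the loading factor tapasin, higher at 152 ± 4.35 TPM in resistant and 129 ± 3.33 TPM in control cells, and the peptidase LNPEP, lower at 6.17 ± 0.585 TPM in resistant and 7.60 ± 0.223 TPM in control cells. Only 1 gene of the list was called lower without any 1 library other than resistant replicate 1.

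Of 11 genes for factors and receptors that induce the immunoproteasome, 5 rose, 3 fell and 3 did not pass (median log2 0.18). Over all genes tested, 24.0% were called higher and 24.7% lower. STAT2, an interferon-activated transcription factor, was at 30.7 ± 0.685 TPM in resistant and 22.3 ± 1.20 TPM in control cells (log2 0.44, adjusted p = 4.79e-04). IRF9, its partner, was at 6.30 ± 1.11 TPM in resistant and 3.91 ± 0.240 TPM in control cells (log2 0.56, adjusted p = 0.00697). JAK1, a kinase of the interferon receptors, was at 46.7 ± 2.09 TPM in resistant and 62.8 ± 2.48 TPM in control cells (log2 -0.42, adjusted p = 4.71e-04). The interferon gamma receptor chains IFNGR1 and IFNGR2 rose too, and RELA and NFKB1, subunits of NF-kappaB, fell. IRF1, an interferon-induced factor known for driving PSMB9, was at 5.16 ± 0.185 TPM in resistant and 4.46 ± 0.400 TPM in control cells, and the MHC class I activator NLRC5 at 5.17 ± 0.481 TPM in resistant and 6.14 ± 0.328 TPM in control cells. Neither passed (adjusted p = 0.152 and 0.0923), and these last 6 genes were named after their values were seen.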

How the data were processed

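Poly(A) RNA libraries of crizotinib-resistant and control H3122 cells, 3 each, were read from 1 table that the authors deposited in TPM. Each column sums to 1000000. HISAT2 is the aligner named per the submitters' processing notes. Neither its version nor how genes were counted, with which strand setting, build and annotation, is given there or in the labels. TPM keeps no depth, so reads were rebuilt from TPM and the union exon lengths of GENCODE 29; 67.2% to 67.9% of values above 0 were whole within 0.01 read, so these totals are estimates. Coordinates of genes are GENCODE 29 on GRCh38; promoters are RefSeq, GRCh38.p14.

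The 16077 genes that reached 1 TPM in 3 or more libraries were fitted with limma 3.58.1 in R 4.3.3 (statmod 1.5.0) on log2(TPM + 1), with trend and robust moderation (two-sided). Benjamini-Hochberg adjustment ran over all of them, with calls at 0.05. The script was tested on simulated data. Named genes were all catalytic genes, up to 4 called members of each class by size of change, and up to 4 called genes of each list with a mean of at least 5 TPM. A few genes that this rule takes from the lists are not reported here. Members and lists were chosen with earlier results of these data known. No value column was left unmapped. There were 13 alternative fits: a pseudocount of 0.1, no filter, a filter at 5 TPM, median-ratio scaling, a replicate block, limma-voom on rebuilt reads, rescaling over nuclear protein-coding genes, and each of the 6 libraries left out. Because the values are TPM, no count model was the main test.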

Additional observations from a re-analysis of the deposited data

How the results depend on the processing

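Of the 26 members called higher, 20 were called in all alternative fits, as were 4 of the 6 called lower; of the 13 that were not called, 7 stayed so throughout. No member that was called in any fit had a log2 change of the other sign. The members called higher and lower were 23 and 5 without a filter on low values, 27 and 6 at 5 TPM, 26 and 6 with a pseudocount of 0.1, 29 and 7 with median-ratio scaling and 31 and 5 with limma-voom on rebuilt reads. They were 27 and 7 after nuclear protein-coding rescaling. Calls over all genes moved as well. Of 16077 genes, the main fit called 3852 higher and 3963 lower. Median-ratio scaling called 4151 and 4156 of them, limma-voom 4715 and 4023, and nuclear protein-coding rescaling 3923 and 4333. A pseudocount of 0.1 gave 3822 and 3936, and the replicate block 3433 and 3423. Without a filter, 3714 and 3548 of 30799 genes were called, and at 5 TPM 3017 and 3552 of 11232. Median-ratio scaling moved the median log2 change of all genes by 0.0051 and nuclear protein-coding rescaling by -0.0136. With limma-voom on rebuilt reads, another model rather than a scaling, it moved by 0.0361. Replicate numbers did not pair the libraries (correlations of deviations of -0.0583, -0.00170 and -0.0163 for numbers 1 to 3); with the replicate block, 25 members rose and 5 fell. That fit lost the calls of PSMB10, PSMD6 and PSMG4 (limma adjusted p = 0.0528, 0.0781 and 0.0908), called PSMC1 higher (0.0353) and changed no other member's call, and the pair ratios kept their values, with a smallest possible p of 0.25.

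Without 1 library each, 22 to 26 members rose and 4 to 7 fell, and over all genes 3316 to 3604 rose and 3114 to 4042 fell. The log2 differences of the ratios were -0.18 to -0.081 for PSMB8 to PSMB5, 0.045 to 0.19 for PSMB9 to PSMB6 and -0.89 to -0.83 for PSMB10 to PSMB7. For the lists, the counts without 1 library were 3 to 5 partners higher and 0 to 3 lower, 3 response genes higher and 1 to 2 lower, 2 to 3 VCP genes higher and 3 lower, 0 to 1 ubiquitin genes higher and 0 to 1 lower, 4 to 5 peptide genes higher and 1 to 2 lower, and 4 to 5 inducing factors higher and 3 lower. Other counts that moved by over 1.5 times were 4 partners higher without a filter; 2 partners lower at 5 TPM and with median-ratio scaling, and 4 after nuclear protein-coding rescaling; and 4 VCP genes higher with limma-voom. Ubiquitin genes called higher were 0 without a filter, 0 with median-ratio scaling and 2 with limma-voom, and 1 peptide gene was lower without a filter and with the replicate block. The causes were not tested. Leaving out members that share same-strand exons left 24 higher and 5 lower. The rescaling over nuclear protein-coding genes, that exclusion and the background at 50 TPM were chosen after seeing the data. PSMA2 had an estimated 42.0 to 79.1 reads per library, so small differences in it were not detectable at this depth.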
